A study of Mus musculus with 10 samples.

Results

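The nuclear genes for subunits of the mitochondrial respiratory chain and ATP synthase were followed in mouse Flk1-sorted cells labelled Ldb1+/+ and Ldb1-/-. They were taken from the count table by symbol: Nduf genes of the a, b, c, s and v series, Uqcr genes, Sdha to Sdhd, Cox4 to Cox8 genes and Atp5 genes. The rule found 84 of the 21868 genes in the table, 37 of complex I, 4 of complex II, 8 of complex III, 17 of complex IV and 18 of complex V. Of these, 83 are protein-coding and 1, Atp5l-ps1, is a pseudogene. The 13 subunits encoded by mitochondrial DNA were not analysed here.

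Complexes I to IV pass electrons from NADH and succinate to oxygen and, except for complex II, pump protons across the inner mitochondrial membrane. Complex V, the ATP synthase, uses the proton gradient to make ATP. Most subunits are encoded in the nucleus, and several of complex IV and complex V come as paralogues used in different tissues. Pluripotent cells make much use of glycolysis, to a degree that depends on their state, and respiration often gains weight as cells differentiate.

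The cells were derived from embryonic stem (ES) cells of genotype Ldb1+/+ (WT) or Ldb1-/- (KO), differentiated as embryoid bodies and sorted for Flk1, the receptor that marks hemangioblast-equivalent progenitors of blood and endothelium. Ldb1 is an adaptor protein of transcription factor complexes. Each genotype had 4 RNA libraries of 11258493 to 13483294 counts. Near-duplicate libraries (1 with 2, and 3 with 4) were pooled into samples A and B of each genotype (n = 2). The comparison asks which genes depend on Ldb1, and the groups shared medium and sort as far as the labels say. The sources used here do not give the day of the RNA libraries, the number of ES cell clones or the structure of the Ldb1-/- allele. For every subunit, an effect of genotype and any other difference between the 2 lines cannot be told apart. Whether A and B were separate cultures is not in the labels, so only the spread between these samples stands behind the p-values. In these bulk samples, fewer cells of a type and less RNA per cell cannot be told apart.

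In counts per 1000000 (CPM), Ldb1 stood at 105 in WT A, 113 in WT B, 96.1 in KO A and 80.1 in KO B (log2 fold change -0.31, SE 0.15, edgeR adjusted p = 0.41). The KO samples were below the WT samples but kept most of the transcript, which goes against a full loss of the RNA. Without the structure of the allele these reads do not check the genotype labels, so WT and KO mean the libraries labelled Ldb1+/+ and Ldb1-/- in every direction given here. Kdr, which encodes Flk1, had 439.5, 605, 236 and 78.6 CPM in the same order, so the sort marker was present in every sample and lowest in KO B. Summed over 8 markers of Flk1+ progenitors, blood and endothelium, WT A had 1059 CPM, WT B 986, KO A 573 and KO B 230.4. Kdr is 1 of the 8 and was the largest part of each sum. Of the 8, 7 had a log2 fold change below 0. Cdh5 did not (0.05), with 151, 84.3, 181 and 62.8 CPM in the same order. Pluripotency markers summed to 1916 CPM in WT A, 510 in WT B, 860 in KO A and 1105 in KO B. Primitive streak markers summed to 12.7 CPM in WT A, 164.5 in WT B, 43.1 in KO A and 12.7 in KO B. Germ cell markers summed to 150, 31.7, 58.0 and 73.7 CPM in the same order. Both WT and KO samples therefore held transcripts of more than 1 cell type, and the part of these differences in the subunit results was not tested.

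Levels of the respiratory chain genes were close in the genotypes. After a filter on low counts, 82 of the 84 subunit genes were tested among 16785 genes. The edgeR quasi-likelihood test called 0 of the 82 at an adjusted p under 0.05, where it called 31 of all tested genes (0.185%). At an unadjusted p under 0.05, 5 subunits were lower in KO, where 7.86% of all tested genes were. They were Uqcr10, Uqcrq, Atp5g1, Atp5h and Cox4i2. By the same measure 1 subunit, Ndufa13, was higher in KO, where 7.61% of all tested genes were. DESeq2 called Uqcr10 and Atp5g1 lower, 2 of 82, where it called 3.85% of genes lower, and no subunit higher, where it called 3.69%. Limma-voom called 0 subunits. All 4 KO libraries lay below all 4 WT libraries for 9 subunits (14.3% of all tested genes) and above them for 4 (14.4%). The counts of subunits called or without overlap were thus below or near the shares over all genes.

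The median log2 fold change (KO over WT) of the 82 subunits was -0.03, against -0.01 for all tested genes, with 48 subunits below 0 and 34 above. Their folds lay in a narrow band. The interquartile range was 0.19 in log2 units, against 0.46 for all tested genes and 0.31 for the 3374 tested genes of other chromosomes whose CPM lay within the middle 50% of the subunits' range. A log2 fold change between -0.3 and 0.3 was found for 75 of the 82 subunits (91.5%), and for 74.9% of those 3374 genes. The median SE of a subunit's log2 fold change was 0.16.

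**Figure D1:**
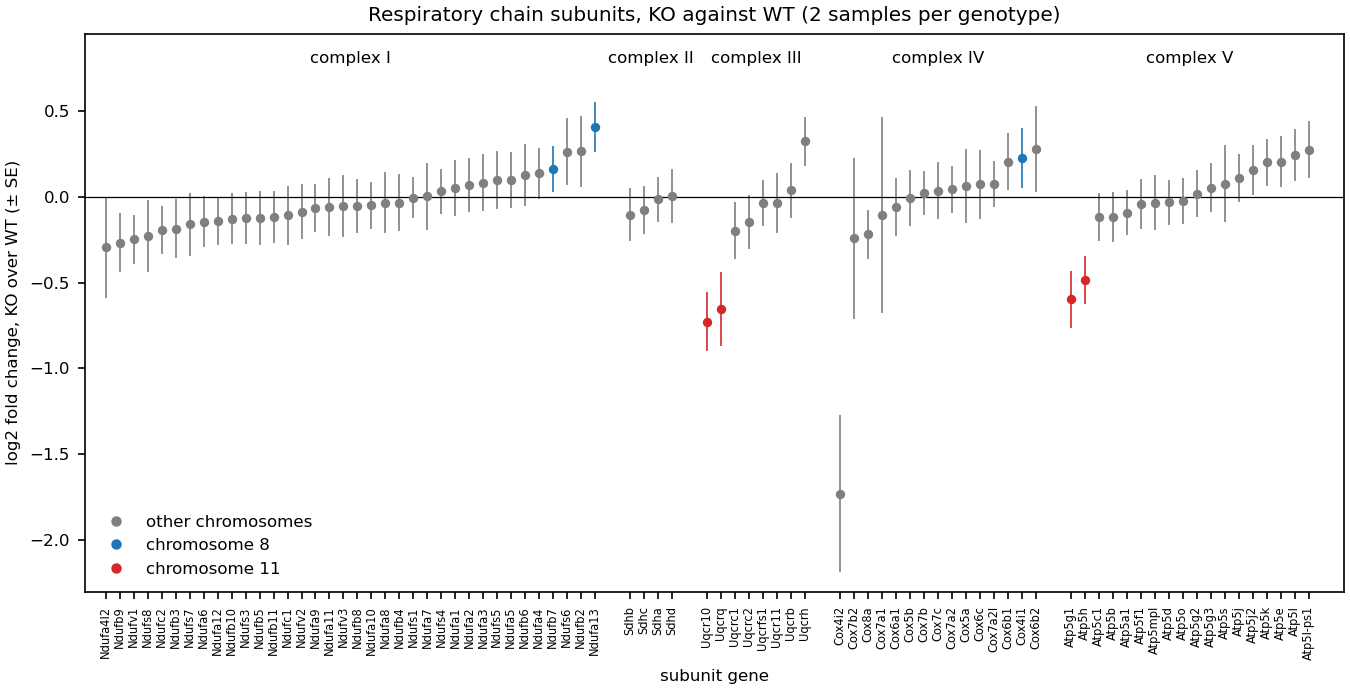
Log2 fold change of KO over WT for 81 of the 82 tested subunit genes, ordered within each complex. Points are edgeR estimates from 2 samples per genotype, bars are the SE, and colours mark chromosome 8, chromosome 11 and all other chromosomes. Cox4i2 is lowest at -1.73, the 4 subunits of chromosome 11 lie between -0.73 and -0.48, and 72 of the 74 plotted subunits of other chromosomes lie within 0.3 of 0.

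Of the 6 subunits at an unadjusted p under 0.05, 4 lie on chromosome 11, Ndufa13 lies on chromosome 8 and Cox4i2 on chromosome 2. Chromosome 11 carries 4 of the 84 genes: Uqcr10 and Uqcrq, both small subunits of complex III, Atp5g1, one of 3 genes for the proton-carrying c ring of ATP synthase, and Atp5h, subunit d of its peripheral stalk. All 4 had KO libraries below every WT library, as did 730 of the 1283 tested genes of chromosome 11. Of those 1283 genes, 562 were lower in KO at an unadjusted p under 0.05 by edgeR. Chromosome 8 carries 3: Ndufa13 and Ndufb7, accessory subunits of complex I, and Cox4i1, the widely used form of subunit 4 of complex IV.

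The promoters of 6 genes are shown for the lower chromosome 11 genes and for subunits that were higher in KO. Each is the 250 bases before the gene start from RefSeq (GRCm38.p6), printed 5′ to 3′ on the gene's strand, with capitals for any match to the 4 motifs searched. Uqcr10 lies at chr11:4704345-4704594, Atp5g1 at chr11:96075632-96075881, Atp5h at chr11:115419920-115420169, Ndufa13 at chr8:69902021-69902270, Uqcrh at chr4:116075071-116075320 and Atp5k at chr5:108434400-108434649, all on the minus strand. The table holds no entry for Uqcrq and Cox4i1.
Uqcr10: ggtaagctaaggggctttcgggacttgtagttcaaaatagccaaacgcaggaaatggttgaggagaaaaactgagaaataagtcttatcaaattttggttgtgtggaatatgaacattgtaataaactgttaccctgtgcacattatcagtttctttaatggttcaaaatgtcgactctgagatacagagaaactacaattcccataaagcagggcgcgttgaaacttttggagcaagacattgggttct
Atp5g1: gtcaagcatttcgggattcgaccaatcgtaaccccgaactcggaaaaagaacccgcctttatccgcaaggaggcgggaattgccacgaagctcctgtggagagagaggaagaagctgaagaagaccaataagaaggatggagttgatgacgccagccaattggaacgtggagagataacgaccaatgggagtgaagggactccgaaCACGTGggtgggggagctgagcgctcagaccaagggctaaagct
Atp5h: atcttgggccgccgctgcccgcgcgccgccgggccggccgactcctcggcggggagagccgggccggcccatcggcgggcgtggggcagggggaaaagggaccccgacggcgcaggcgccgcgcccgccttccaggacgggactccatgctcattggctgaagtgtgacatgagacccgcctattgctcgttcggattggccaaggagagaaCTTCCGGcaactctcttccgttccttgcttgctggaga
Ndufa13: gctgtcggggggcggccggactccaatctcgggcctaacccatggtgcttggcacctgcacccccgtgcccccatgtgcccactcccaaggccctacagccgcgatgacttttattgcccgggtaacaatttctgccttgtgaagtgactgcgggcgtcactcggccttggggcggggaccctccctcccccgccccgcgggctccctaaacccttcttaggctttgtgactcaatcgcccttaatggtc
Uqcrh: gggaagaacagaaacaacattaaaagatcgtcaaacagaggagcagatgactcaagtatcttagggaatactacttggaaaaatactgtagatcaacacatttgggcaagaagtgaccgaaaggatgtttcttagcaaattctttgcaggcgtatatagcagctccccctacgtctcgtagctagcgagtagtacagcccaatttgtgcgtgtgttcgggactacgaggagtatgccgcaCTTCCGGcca
Atp5k: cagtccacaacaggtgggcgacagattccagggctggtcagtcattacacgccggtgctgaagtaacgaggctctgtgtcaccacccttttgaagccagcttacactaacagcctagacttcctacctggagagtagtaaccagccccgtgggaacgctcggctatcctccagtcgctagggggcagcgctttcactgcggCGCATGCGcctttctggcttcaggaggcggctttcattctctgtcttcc
The motifs, searched on both strands, were the core CGCATGCG of nuclear respiratory factor NRF1, the ETS sequence CCGGAAG bound by GABP among others, the YY1 sequence AAGATGGCG and the E-box CACGTG. They do not contain one another. The ETS letters stood before the start of both Atp5h, which was lower in KO, and Uqcrh, which was higher. Uqcr10 and Ndufa13 had none of the 4 motifs in this window. Among the 67 subunit genes matched to the table, 7 held the NRF1 core (10.4%, against 1.75% of all 27025 genes and 3.16% of tested genes). The ETS letters stood in 12 (17.9%, against 7.83% and 13.6%), the YY1 letters in 1, Atp5j (1.49%, against 0.71% and 1.18%), and the E-box in 6 (8.96%, against 6.86% and 9.44%). The median log2 fold change was 0.12 for the 12 subunits with the ETS letters and -0.04 for those without, and the range of those with the letters, -0.48 to 0.32, spanned 0. It was 0.02 with the NRF1 core and -0.03 without, and -0.02 with the E-box and -0.03 without. The 1 gene with the YY1 letters was at 0.11. These differences were not tested. These 4 motifs and the window were settled after counts in these promoters had been seen. In all, 9 strings were searched, the other 5 being the TATA box TATAAA, the hexamer GACGTG, the shifted NRF1 form GCATGCGC, the longer ETS form CCGGAAGT and the NRF1 core with a further base on each side. The last stood in 4 subunit genes (5.97%, against 0.877% of all genes and 1.65% of tested genes), and CCGGAAGT in 3 (4.48%, against 3.23% and 5.76%). The window mattered most for YY1: with the 50 bases after the start included, 300 bases in all, its letters stood in 7 subunit genes (10.4%, against 1.64% and 2.99%). The wider window gave 9 genes for the NRF1 core, 16 for the ETS letters and 6 for the E-box. A match is a description of the letters alone.

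Uqcr10 had 58.2 CPM in WT A, 47.6 in WT B, 29.4 in KO A and 34.5 in KO B. Both KO samples were below both WT samples, by a log2 fold change of -0.73 (SE 0.17) that did not pass edgeR (adjusted p = 0.143) and passed DESeq2 (adjusted p = 0.0159). Uqcr10 is a small membrane-spanning protein of the cytochrome bc1 complex.

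Atp5g1 had 184 and 142 CPM in WT against 111 and 105 CPM in KO. The groups did not overlap, and the WT samples were further apart than the KO samples. Its log2 fold change was -0.60 (SE 0.17, edgeR adjusted p = 0.182, DESeq2 adjusted p = 0.0403). Atp5g2 and Atp5g3, which encode the same mature protein from other chromosomes, had log2 fold changes of 0.02 and 0.05.

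Uqcrq had 52.0 and 37.7 CPM in WT against 25.4 and 31.6 CPM in KO. No KO library reached a WT library, but WT B was closer to KO B than to WT A. The log2 fold change was -0.65 (SE 0.22, edgeR adjusted p = 0.235). The gene model of Uqcrq overlaps that of Gdf9, an oocyte growth factor gene, which had 0.182 CPM in KO on average and 0.553 CPM in WT.

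Atp5h had 111 and 120 CPM in WT against 76.8 and 88.1 CPM in KO. The groups were apart by more than the distance within either, with a log2 fold change of -0.48 (SE 0.14, edgeR adjusted p = 0.186, DESeq2 adjusted p = 0.0561).

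On chromosome 8 the subunits leaned the other way. Ndufa13, also known as GRIM-19, had 38.5 and 36.2 CPM in WT against 45.8 and 53.0 CPM in KO. Both KO samples were above both WT samples (log2 fold change 0.41, SE 0.15, edgeR adjusted p = 0.273). Its gene model overlaps Tssk6, a testis kinase gene, which had 1.06 CPM in WT and 3.02 CPM in KO. For Ndufb7 the values were 45.5 and 42.8 CPM in WT against 47.7 and 51.3 CPM in KO, a small difference with overlapping libraries (log2 fold change 0.16, SE 0.13). Cox4i1 had 237 and 186 CPM in WT against 226 and 269 CPM in KO, so KO A lay between the WT samples (log2 fold change 0.23, SE 0.17).

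The rest of each chromosome was shifted in the same direction. The median log2 fold change was -0.63 for the 4 chromosome 11 subunits and -0.46 for the 1283 tested genes of chromosome 11, of which 1113 were below 0. It was 0.23 for the 3 chromosome 8 subunits and 0.22 for the 822 tested genes of chromosome 8, of which 629 were above 0. The 75 tested subunits of other chromosomes had a median of -0.03, against 0.00 for all 13592 tested genes of those chromosomes. Of the tested chromosome 11 genes, 21.0% had a fold change below that of Uqcr10, 26.0% below Uqcrq, 32.6% below Atp5g1 and 46.2% below Atp5h. None of the 4 stood at the edge of its chromosome. Of the chromosome 8 genes, 74.1% were below Ndufa13, 50.9% below Cox4i1 and 42.7% below Ndufb7.

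Chromosome medians were then removed, taken over tested genes above a mean log2 CPM of 3 (-0.47 for chromosome 11 and 0.25 for chromosome 8). The chromosome 11 subunits then had a median log2 fold change of -0.16 and the chromosome 8 subunits of -0.02. Cox4i1 and Ndufb7 went from above to below 0 (-0.02 and -0.08). For Cox4i1 this rests on the genes used, since its 0.23 lies above the median of 0.22 over all tested chromosome 8 genes. Uqcr10 was then at -0.26, Uqcrq at -0.18, Atp5g1 at -0.13, Atp5h at -0.02 and Ndufa13 at 0.16. For these 7 genes, a response of the gene and a shift of its chromosome in either line cannot be told apart. The difference from WT held in both KO samples. Relative to the WT mean, the chromosome 11 subunits had a median log2 CPM of -0.69 in KO A and -0.55 in KO B, against 0.17 and -0.17 in WT A and B. The chromosome 8 subunits stood at 0.11 and 0.36 in KO A and B, against 0.05 and -0.05 in WT.

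**Figure D2:**
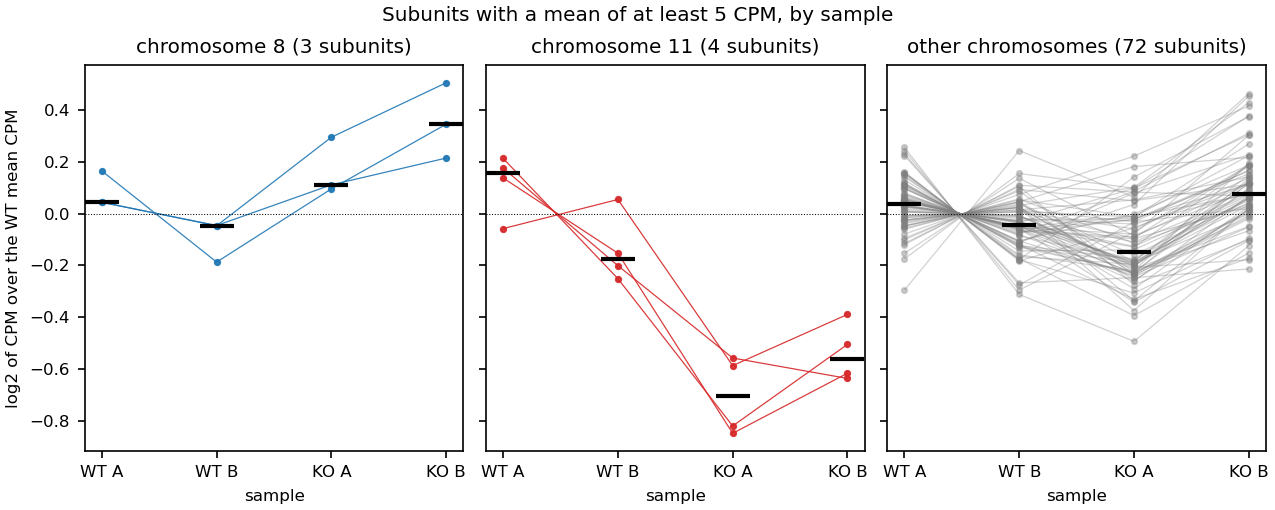
Level of each subunit gene with a mean of at least 5 CPM in the 4 samples, as the log2 of its CPM over its WT mean, for chromosome 8 (3 genes), chromosome 11 (4 genes) and all other chromosomes (72 genes). Lines join the values of 1 gene and black bars are medians. The chromosome 11 genes lie below the WT mean in both KO samples, and the genes of other chromosomes lie lower in KO A than in KO B.

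Complex I, the NADH dehydrogenase, had a median log2 fold change of -0.05 over its 37 subunits, with 24 below 0 and 13 above. The 7 core subunits that carry electrons from NADH to ubiquinone were all below 0, from -0.25 for Ndufv1, the NADH-binding subunit, to -0.01 for Ndufs1. None of the 7 reached an unadjusted p under 0.05. Relative to the WT mean, their median log2 CPM was -0.235 in KO A and 0.02 in KO B, against 0.05 and -0.05 in WT A and B. By this median KO A lay below the WT samples and KO B between them. Ndufv1 had 106 and 90.8 CPM in WT against 78.4 and 87.5 CPM in KO. Its KO libraries lay below its WT libraries, but KO B and WT B were close (SE 0.15, edgeR adjusted p = 0.503). The 30 accessory subunits had a median of -0.04 and lay between -0.30 and 0.41. At the low end were Ndufa4l2 (-0.30, SE 0.29), a paralogue of Ndufa4 known for induction in hypoxia, and Ndufb9 (-0.27, SE 0.17). Ndufa4l2 overlaps Shmt2, an enzyme gene of mitochondrial one-carbon metabolism, which had a log2 fold change of -0.56 (SE 0.13, edgeR adjusted p = 0.135). At the high end, after Ndufa13, was Ndufb2 (0.26, SE 0.21). Libraries of KO and WT did not overlap for 4 of the 37 complex I subunits, against 28.7% of all tested genes. Ndufv1, Ndufc2 and Ndufb10 were on the lower side and Ndufa13 on the higher.

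Complex II, succinate dehydrogenase, also serves the citric acid cycle. Its 4 subunits lay within a narrow range, from -0.10 for the iron-sulfur subunit Sdhb (SE 0.16) to 0.01 for the membrane anchor Sdhd (SE 0.16). The flavoprotein Sdha, the most abundant of the 4 by CPM, had 206 and 202 CPM in WT against 189 and 215 CPM in KO, with the WT samples between the KO samples. Sdhc, the other anchor, had a log2 fold change of -0.08 (SE 0.14). Libraries overlapped for all 4.

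Complex III, the cytochrome bc1 complex, had the lowest median of the 5 complexes, -0.09 over 8 subunits. It went to -0.04 over 6 subunits without the chromosome 11 genes Uqcr10 and Uqcrq. The core proteins Uqcrc1 (-0.20, SE 0.17) and Uqcrc2 (-0.15, SE 0.16) and the Rieske iron-sulfur protein Uqcrfs1 (-0.04, SE 0.13) were below 0 with overlapping libraries. Uqcrc2 had 190 and 198 CPM in WT against 154 and 197 CPM in KO, so only KO A was lower. Uqcrh, the hinge protein that helps cytochrome c1 hand electrons to cytochrome c, was on the higher side. It had 60.5 and 67.3 CPM in WT against 74.5 and 85.2 CPM in KO, with every KO library above every WT library (log2 fold change 0.32, SE 0.14, edgeR adjusted p = 0.365). Uqcrb, another small subunit, had a log2 fold change of 0.04 (SE 0.16).

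Complex IV, cytochrome c oxidase, had a median of 0.04 over 15 tested subunits, with 9 above 0. The 10 widely expressed subunits lay between -0.22 for Cox8a and 0.23 for Cox4i1. Cox8a had 107 and 99.2 CPM in WT against 81.4 and 96.0 CPM in KO. The groups did not overlap, but KO B was nearer to WT B than to KO A (SE 0.14, edgeR adjusted p = 0.557). The medians of complexes I to V were -0.05, -0.05, -0.09, 0.04 and 0.00, and differences between them were not tested.

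Complex V, the ATP synthase, had 9 subunits below 0 and 9 above. Of the catalytic F1 head, 4 of 5 subunits were below 0, between -0.12 and 0.20. Atp5b, the catalytic beta subunit, was the most abundant of all 84 genes both by CPM and per length. It had 1351 and 1174 CPM in WT against 1071 and 1257 CPM in KO, so the groups overlapped in part, with KO A lowest and WT A highest (log2 fold change -0.12, SE 0.15, edgeR adjusted p = 0.803). The small subunits of the membrane part had a median of 0.18 over Atp5j2, Atp5k, Atp5l and Atp5mpl, with 3 above 0. Atp5mpl was at -0.03, and none of the 4 reached an unadjusted p under 0.05. Relative to the WT mean, their median log2 CPM was 0.09 in KO A and 0.225 in KO B. Atp5k, subunit e, had 32.6 and 34.8 CPM in WT against 38.3 and 39.2 CPM in KO, and its groups did not overlap (log2 fold change 0.20, SE 0.14, edgeR adjusted p = 0.578). Atp5l, subunit g, had 53.5 and 51.0 CPM in WT against 55.9 and 67.9 CPM in KO, a lead that rested mostly on KO B (log2 fold change 0.25, SE 0.15). Its pseudogene Atp5l-ps1 had 0.28 (SE 0.17), and the counting may have split reads between the pair.

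Per length, the complexes differed more than the genotypes did. In CPM per kilobase of the deposited transcript length, averaged over the 4 samples, the median was 61.8 for complex I, 82.7 for complex II, 107 for complex III, 155 for complex IV and 124 for complex V. Atp5b stood at 688 CPM per kilobase, Atp5g2 at 357, Cox4i1 at 339 and Atp5a1, the alpha subunit of the F1 head, at 302. These levels use 1 deposited length per gene. For Atp5g1 that length is 4715 bases, against 647 for Atp5g2 and 723 for Atp5g3, so the per-length level of Atp5g1, 28.7, depends on it.

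The shares of the 3 subunit c genes were compared within each sample, with no test. Atp5g1 held 30.4% and 26.0% of their reads in WT A and B and 22.2% and 18.6% in KO A and B. Atp5g2 held 39.5% and 40.2% in WT and 43.2% and 44.2% in KO, and Atp5g3 30.1% and 33.8% in WT and 34.5% and 37.1% in KO. The share of Atp5g1 was lower in both KO samples than in both WT samples, but WT A and WT B were further apart than WT B and KO A. The genes for subunit c lie on 3 chromosomes, and Atp5g1 is the one on chromosome 11.

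The widely expressed form held most reads in every sample for Cox4, Cox6a, Cox6b, Cox7b and Cox8. In the Cox7a family Cox7a2l held 69.8% to 70.8% of reads and Cox7a2 26.5% to 29.0%. Cox7a2l has the longer deposited length, and per length their shares were 48.9% to 50.1% and 44.1% to 48.5%. Cox4i2, the form of subunit 4 known from lung and from cells in low oxygen, had 1.62 and 3.13 CPM in WT against 0.648 and 0.780 CPM in KO, from 15 to 83 reads per sample. Both KO samples were below both WT samples, with the lowest fold of all tested subunits (log2 fold change -1.73, SE 0.46, edgeR adjusted p = 0.169). It made 0.679% and 1.66% of the reads of the Cox4 pair in WT and 0.286% and 0.289% in KO. Cox4i2 overlaps the survival gene Bcl2l1, which had 72.3 CPM in WT and 97.0 CPM in KO.

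The other tissue-linked forms differed within WT more than between genotypes. Cox7a1, the form of heart and skeletal muscle, had 7.04 and 2.34 CPM in WT against 3.59 and 5.11 CPM in KO, with WT A highest and WT B lowest. Cox7b2, known from testis, had 3.54 and 1.58 CPM in WT against 1.86 and 2.46 CPM in KO, in the same order of samples. Germ cell markers were also highest in WT A (150 CPM summed over 5 genes) and lowest in WT B (31.7 CPM), and striated muscle markers, 12 genes with Ckm, Myod1 and Nkx2-5 under 1 CPM, summed to 177.5 and 307 CPM in WT A and B. The part of such cells in these 2 genes was not tested. Cox6b2, another form known from testis, was better expressed, at 17.6 and 25.6 CPM in WT against 22.6 and 29.8 CPM in KO, and held 18.8% to 22.0% of the Cox6b reads in each sample. Cox7a2 and Cox7a2l had log2 fold changes of 0.04 and 0.07, Cox6a1 of -0.06, Cox6b1 of 0.20, Cox7b of 0.02 and Ndufa4 of 0.14, all with overlapping libraries. Ndufa4 is grouped with complex I by its name but is also known as a complex IV subunit. Cox6a2 (3, 0, 0 and 2 reads in WT A, WT B, KO A and KO B) and Cox8c (2, 0, 0 and 0 reads), the muscle and testis forms, were too low to test.

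**Figure D3:**
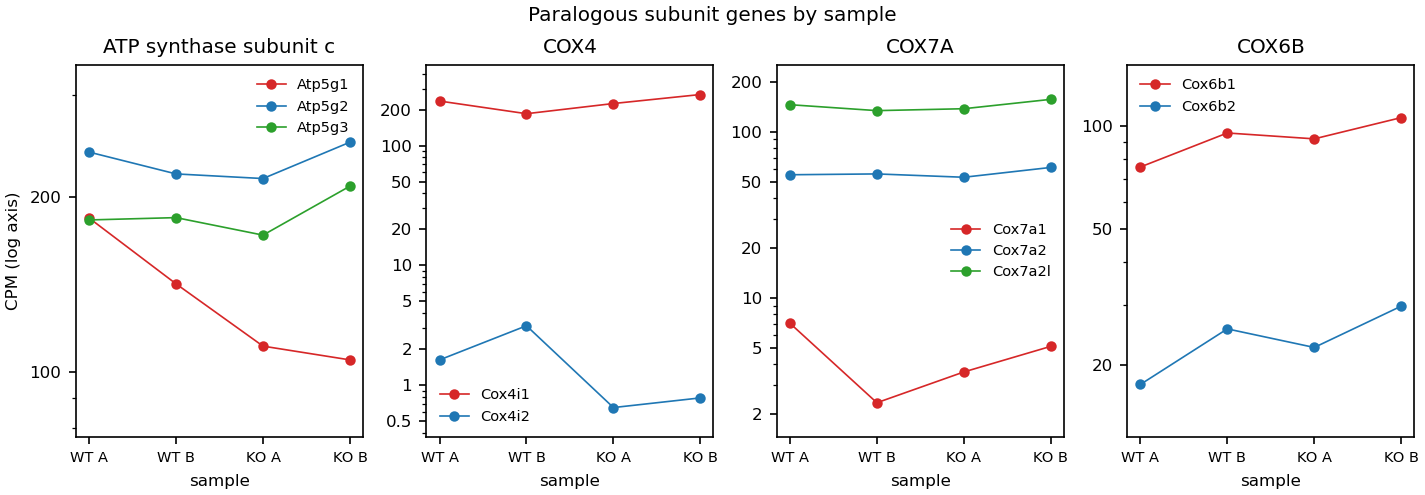
CPM of paralogous subunit genes in each sample on log axes, for ATP synthase subunit c and the COX4, COX7A and COX6B families of complex IV. Lines join the values of 1 gene and imply no order of samples. Atp5g1 and Cox4i2 are lower in both KO samples than in both WT samples, and Cox7a1 is highest in WT A and lowest in WT B.

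Differences between the samples of 1 genotype were set beside the difference between genotypes. The median absolute log2 fold change of the 82 subunits between genotypes was 0.11, against 0.12 between WT A and WT B and 0.23 between KO A and KO B. Over all tested genes these values were 0.23, 0.24 and 0.21. A difference between single samples carries more spread than a difference between groups of 2 samples, so the sizes are not directly comparable. KO B was above KO A for 80 of the 82 subunits, at a median log2 difference of 0.23, where 53.8% of all tested genes were above. The exceptions were Atp5g1 (-0.08) and Atp5s (-0.01). Atp5s entered complex V by its symbol and is named Dmac2l in RefSeq. The medians of KO B against KO A were 0.23, 0.21, 0.22, 0.24 and 0.21 for complexes I to V. In WT, B was above A for 26 of 82 subunits, with a median of -0.09. Both differences were centred near 0 over all tested genes, at 0.03 in KO and 0.00 in WT. Leaving out KO B gave the subunits a median log2 fold change of -0.18 against WT, and leaving out KO A gave 0.08. Leaving out WT A gave 0.02, and leaving out WT B gave -0.06. The side of 0 on which the group fell thus rested on which samples of either genotype were used.

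Other gene lists differed between the KO samples too. Of 136 tested cytosolic ribosomal protein genes, 130 were higher in KO B than in KO A, at a median log2 difference of 0.24, and of 79 mitochondrial ribosomal protein genes 68 were, at 0.15. So were 15 of 18 genes of pyruvate dehydrogenase and the citric acid cycle, at 0.18, and 34 of 46 assembly factors, at 0.18. Regulators of mitochondrial gene expression were split, with 8 of 17 higher in KO B. Between the same samples all 8 Flk1+ progenitor markers were lower in KO B, 7 of 8 pluripotency markers were higher and 8 of 10 tested striated muscle markers were higher (summed 164 CPM in KO A and 273 CPM in KO B). The part of these cell types, of the ribosomal protein pattern and of the scaling in the subunit difference was not tested.

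**Figure D4:**
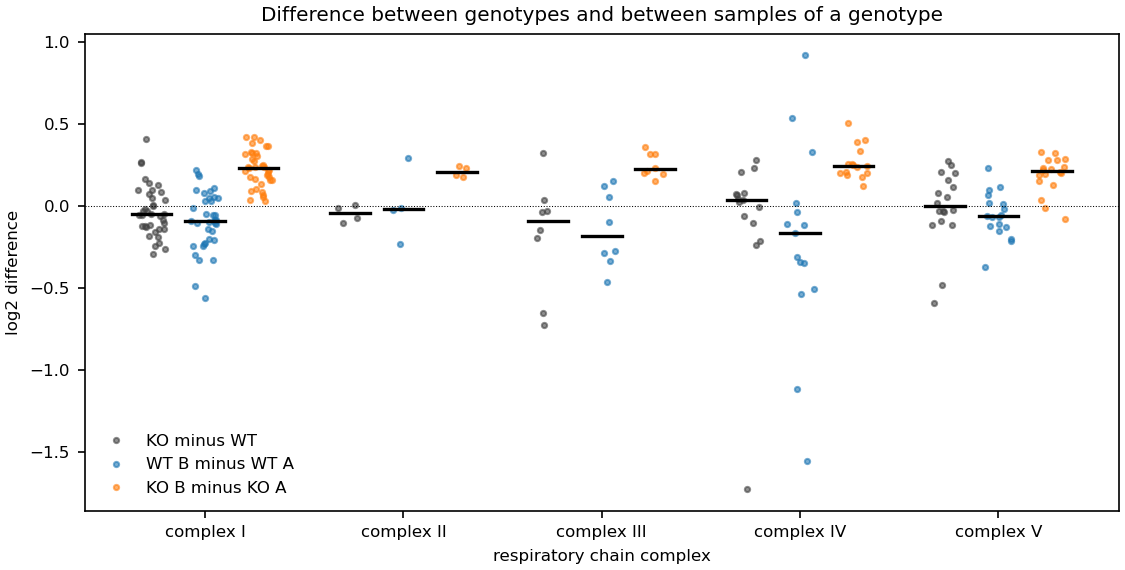
Log2 differences of each tested subunit by complex, for KO against WT (grey), WT B against WT A (blue) and KO B against KO A (orange). Points are genes, spread sideways for display, and black bars are medians. In each complex the KO B against KO A points lie almost entirely above 0, at medians of 0.21 to 0.24, while the KO against WT medians lie between -0.09 and 0.04.

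Genes that build or serve the chain were examined by lists. Counts in these lists stand against the same shares of all tested genes: 7.86% lower and 7.61% higher at an unadjusted p under 0.05, 3.85% lower by DESeq2, and 14.3% with all KO libraries below all WT libraries. Of 46 tested assembly factors, edgeR called 0, 7 were lower and 1 higher at an unadjusted p under 0.05, 3 were lower by DESeq2, and 14 had all KO libraries below WT. Their median log2 fold change was -0.16. Chromosome 11 carries 9 of the 46, against 1283 of all 16785 tested genes, and the median was -0.10 without chromosomes 8 and 11. Of the complex I factors, Ndufaf8 had 6.74 and 5.10 CPM in WT against 1.81 and 2.54 CPM in KO, lower in both KO samples (log2 fold change -1.44, SE 0.33, edgeR adjusted p = 0.136), and Ecsit had -0.32. Ttc19, which keeps complex III in working order, had 25.5 and 25.02 CPM in WT against 15.9 and 15.7 CPM in KO, far apart against its spread (log2 fold change -0.68, SE 0.15, edgeR adjusted p = 0.136). Bcs1l, which inserts the Rieske protein, had -0.48. Cox10, which makes heme for complex IV, had 21.9 and 20.5 CPM in WT against 10.9 and 13.6 CPM in KO, again without overlap (log2 fold change -0.79, SE 0.19, edgeR adjusted p = 0.148). Sco1, a copper carrier to complex IV, had -0.47. For complex V, Atpaf2 had -0.43 and Atpaf1 -0.32, and for complex II, Sdhaf4 had -0.21 and Sdhaf3 -0.22. Ndufaf8, Ttc19, Cox10, Sco1 and Atpaf2 lie on chromosome 11, and Ecsit, Bcs1l and Atpaf1 do not. With chromosome medians removed, Ndufaf8 was at -0.97, Ttc19 at -0.21, Cox10 at -0.32, Sco1 at -0.004 and Atpaf2 at 0.04. For these chromosome 11 genes too, a response of the gene and a shift of its chromosome cannot be told apart.

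Of 17 regulators of mitochondrial gene expression, edgeR and DESeq2 called 0, 2 were lower at an unadjusted p under 0.05 and 6 had all KO libraries below WT. Their median was -0.06. The lowest p-values were those of Polg2, the accessory subunit of the mitochondrial DNA polymerase and a chromosome 11 gene (-0.60, SE 0.19, edgeR adjusted p = 0.228), and Slirp, which stabilises mitochondrial transcripts (-0.55, SE 0.19, edgeR adjusted p = 0.248). The 18 genes of pyruvate dehydrogenase and the citric acid cycle had a median of -0.04, and edgeR called 0 (1 lower at an unadjusted p under 0.05, and 5 with all KO libraries below WT). DESeq2 called Ogdh, a subunit of the 2-oxoglutarate dehydrogenase on chromosome 11, at a log2 fold change of -0.46. Fh1, fumarase, had -0.34. With chromosome medians removed, the chromosome 11 genes Ogdh and Polg2 were at 0.006 and -0.13. The 9 other electron carriers and subunits had a median of 0.02 with 0 calls by edgeR and DESeq2 (1 at an unadjusted p under 0.05), and the lowest p-values there were those of Sqor, which passes electrons from sulfide to ubiquinone (-1.40, at 2.09 CPM or less), and Gpd2 (0.22). The 79 mitochondrial ribosomal protein genes had a median of -0.15, or -0.12 without chromosomes 8 and 11, with 62 below 0. EdgeR called 0 of them, 6 were lower by DESeq2, 10 were lower at an unadjusted p under 0.05, and 30 had all KO libraries below WT. These counts stand above the shares of all tested genes given for the lists, and 11 of the 79 lie on chromosome 11. The 136 cytosolic ribosomal protein genes had a median of -0.03 with 0 edgeR calls, 11 lower by DESeq2, 17 lower at an unadjusted p under 0.05 and 21 with all KO libraries below WT, where 3.85%, 7.86% and 14.3% of all tested genes were.

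Gene models of 26 of the 84 subunits overlap another gene on the RefSeq assembly. With the strand setting not given, reads of such neighbours cannot be told apart.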

How the data were processed

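RNA of Flk1-sorted Ldb1+/+ and Ldb1-/- cells was measured by RNA-seq in 8 libraries. The table deposited by the authors holds raw read counts per Ensembl gene and, per the file headers, another column with a transcript length in bases for each gene, with no definition. The submitters' processing notes name mm9 and DESeq. Aligner, counter, strand setting and annotation release: not given in the sources used here. Symbols were found for 20362 of the 21868 genes. A RefSeq table of assembly GRCm38.p6 gave chromosomes for all 84 subunit genes and for 19653 genes in all, and was used for names, chromosome membership and overlap of gene models. The deposited peaks of the ChIP experiment were not used here.

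Each pair of libraries was compared by the mean chi-square over genes with 20 or more reads in both together, which is near 1 for sampling noise. Libraries 1 and 2 and libraries 3 and 4 of each genotype gave means of 1.07 to 1.10 in 4 pairs, against 12.8 to 28.5 in the other 8 pairs within a genotype. Their counts were summed, giving samples A and B of each genotype with 22674679 to 26775787 counts. The smallest exact permutation p for 1 gene in this design is 0.333.

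These sums were filtered by filterByExpr, TMM-scaled and fitted by robust quasi-likelihood tests of edgeR 4.0.16 (R 4.3.3) over all genes, with Benjamini-Hochberg adjustment at 0.05. Levels are counts per 1000000 (CPM). DESeq2 1.42.0 and limma-voom (limma 3.58.1) were alternatives, with other scalings, other low-count filters, a threshold of 0.01, a replicate block, 8 separate libraries, removal of chromosome medians and leaving out each sample or library. The fit was checked on simulated counts with known changes. Tables and figures were made with Python 3.11.15, pandas 2.3.3, numpy 2.4.6 and matplotlib 3.10.9. Promoters were the 250 bases before each gene start in a RefSeq table of GRCm38.p6, with the 50 bases after the start left out.

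The subunits, the gene lists and the role groups were chosen with earlier results of these data known. Named subunits were those past the adjusted p, the 2 most negative and 2 most positive log2 fold changes of each complex at a mean of at least 5 CPM, the most abundant subunit of each complex, every subunit on chromosomes 8 and 11 or in a paralogue family, up to 6 subunits whose libraries did not overlap, and those under the filter. For other lists they were up to 2 genes with the smallest p. Other genes named in the text were chosen after their values were seen. The values of 1 subunit gene are not reported here.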

Additional observations from a re-analysis of the deposited data

How the results depend on the processing

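The number of genes called over the whole table, 31, depended on the processing: 151 with no filter on low counts, 5 with at least 1 CPM in at least 2 samples, 1168 with DESeq2, 3 with limma-voom, 3860 with the 8 libraries fitted separately, 5 with chromosome medians removed, 2 at an adjusted p of 0.01, and 0 to 1674 when 1 sample or library was left out. Of the subunits, DESeq2 called 2 and the fit of 8 libraries 7, which counts near-duplicate libraries as replicates. Leaving out WT B called 3 (Uqcr10, Atp5g1 and Uqcrq, edgeR adjusted p = 0.0106, 0.0141 and 0.0137), and leaving out WT A called 1 (Cox4i2, 0.00608), where the lone WT sample is assumed to vary like KO and 1674 and 1537 genes were called in all. The other settings called 0 subunits.

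The A and B numbers were not shown to pair the samples: over 16785 genes the A minus B differences of WT and KO correlated at r = -0.0814. With a replicate block, 5 genes and 0 subunits were called, and Cox7a1 went from -0.10 to 0.065.

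Over the fits without 1 sample or library, the median log2 fold change ranged from -0.178 to 0.0809 for all subunits, -0.204 to 0.0655 for complex I, -0.154 to 0.060 for complex II, -0.224 to 0.0346 for complex III, -0.122 to 0.143 for complex IV, -0.096 to 0.112 for complex V, 0.111 to 0.406 for chromosome 8, -0.814 to -0.479 for chromosome 11 and -0.175 to 0.0816 for the rest. With chromosome medians removed it was -0.0188 for chromosome 8 and -0.156 for chromosome 11.

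The signs of 16 named subunits changed in these fits. They ranged from -0.546 to 0.00862 for Ndufa4l2, -0.337 to 0.0258 for Uqcrc2, -0.0131 to 0.275 for Ndufa4, -0.231 to 0.018 for Sdhb, -0.706 to 0.439 for Cox7b2, -0.0226 to 0.171 for Cox7a2l, -0.198 to 0.0383 for Sdhc, -0.0943 to 0.192 for Atp5g3, -0.205 to 0.0963 for Cox6a1, -0.13 to 0.191 for Uqcrb, -0.0592 to 0.143 for Cox7a2, -0.687 to 0.887 for Cox7a1, -0.139 to 0.164 for Sdhd, -0.11 to 0.0816 for Sdha, -0.0406 to 0.085 for Cox7b and -0.0909 to 0.124 for Atp5g2. Limma-voom gave 0.109 for Cox7a1. Upper quartile scaling gave -0.0243 for Sdhd, -0.00879 for Cox7b and -0.0131 for Atp5g2, and library size alone -0.0282, -0.0121 and -0.017. Scaling without genes of chromosomes 8 and 11 gave -0.0152, -8.58e-05 and -0.00376. Sdhd was at -0.00892 with at least 1 CPM in 2 samples and at -0.000511 with 8 libraries. With chromosome medians removed, Cox4i1 was at -0.0188, Ndufb7 at -0.0809, Sdhd at -0.0169 and Cox7b at -0.0386. The cause was not tested. In 700 of the fits of named subunits direction and side of the threshold were kept, 13 passed the threshold and 46 changed sign. With 2 samples per genotype and a median SE of 0.16, small shifts were not detectable at this spread.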
